A study of Mus musculus with 18 samples.

Results

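The miR-10 and miR-196 microRNAs are encoded inside the Hox clusters, the gene arrays that set position along the body axis. Hairpins of the miR-10 genes lie beside Hoxb4 and Hoxd4, and those of the miR-196 genes beside the posterior genes Hoxa9, Hoxb9 and Hoxc10. Both families repress Hox transcripts, among them Hoxb8, which miR-196 cleaves in the mouse embryo, and they are counted among the microRNAs enriched in adult kidney, a tissue that keeps expressing posterior Hox genes. Of the strands cut from each hairpin, the 5p strand is the main product and the 3p strand is mostly degraded. The 7 mature arms described here were taken by name from a table of 1534 entries: mmu-miR-10a-5p, mmu-miR-10a-3p, mmu-miR-10b-5p, mmu-miR-10b-3p, mmu-miR-196a-5p, mmu-miR-196b-5p and mmu-miR-196a-2-3p. They stood on 8 rows, because mmu-miR-196a-5p had 2 rows with the same values, and all 7 passed the filter on low counts. The mmu prefix is left out below.

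Small RNA was sequenced from whole mouse kidney in 3 groups of 6 libraries. Saline at 0.9% was given to the control mice, of strain C57BL/6J, and to the mice with diabetic nephropathy (DN), of strain C57BL/KsJ. In the treated group, DN mice of strain C57BL/KsJ received 10 mg/kg/day of the sesquiterpene germacrone, a compound of plant oils. The labels name neither an age nor the allele or agent behind the diabetes, and control mice differed from both DN groups in strain, so that strain and disease cannot be told apart. Named counts came to 3639790 to 7236246 per library, and nothing in the labels says that the libraries of a group came from separate animals, so the p-values speak to the spread among these libraries, which may be technical. The kidney tubule microRNAs miR-192-5p, miR-194-5p, miR-204-5p and miR-30a-5p were present in every group, miR-192-5p at a mean of 18250 CPM (counts scaled to a common library total) in control. DN 2 stood apart: its 6 leukocyte microRNAs summed to 23150 CPM, against 1344 to 1906 CPM in the other DN libraries, and its 4 tubule microRNAs to 26890 CPM, against 71110 to 131700 CPM. Treated 6 had a high leukocyte sum too, 8492 CPM against 1472 to 2629 CPM in the other treated libraries. Of that sum, miR-146a-5p alone held 7613 CPM. In DN 2, miR-223-3p reached 5099 CPM and miR-142a-3p 1623 CPM, against at most 197 and 123 CPM in treated libraries. Control 2 and DN 3 were low, with DN 2, in the 2 endothelial microRNAs (9172, 8034 and 8007 CPM against 14520 to 25980 CPM), and these 3 libraries had the lowest median correlations with their own group (0.946, 0.926 and 0.896 against 0.958 to 0.973). Fits without the 3 are given below for that reason, and the 3 were picked with earlier results of these data known.

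The mature sequences show which arms the counting could tell apart. They are taken from RefSeq on build GRCm38.p6, where all 7 names were found, and are written 5′ to 3′ with the seed (bases 2 to 8, which pair with target transcripts) in capitals.
miR-10a-5p: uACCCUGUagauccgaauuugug
miR-10b-5p: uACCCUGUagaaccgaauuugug
miR-10a-3p: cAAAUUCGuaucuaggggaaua
miR-10b-3p: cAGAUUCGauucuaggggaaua
miR-196a-5p: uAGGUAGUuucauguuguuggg
miR-196b-5p: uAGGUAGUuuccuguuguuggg
miR-196a-2-3p: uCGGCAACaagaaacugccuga
miR-10a-5p and miR-10b-5p have the same seed and differ at 1 of 23 bases, U12A counted from the 5′ end of miR-10a-5p. The 5p arms of miR-196b and miR-196a also have 1 seed and differ at 1 of 22 bases, C12A counted from the 5′ end of miR-196b-5p. The 3p arms of miR-10a and miR-10b differ at 3 of 22 bases (A3G, U9A and A10U), of which A3G lies in the seed. The file names no genome build, so the positions that follow are those of the reference.

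Mature miR-10a-5p lies at chr11:96317186-96317208 on the plus strand in the HoxB cluster, where its hairpin overlaps no other gene in GENCODE M21 and ends 992 bases before Hoxb4. miR-10b-5p lies at chr2:74726074-74726096 on the plus strand in the HoxD cluster, within introns annotated to Hoxd3 and Hoxd4. miR-196b-5p lies at chr6:52230129-52230150 on the minus strand in the HoxA cluster, and its hairpin overlaps an exon annotated to Hoxa9. miR-196a-5p is made from 2 hairpins, 1 at chr11:96265187-96265208 in the HoxB cluster, outside other genes and 6191 bases before Hoxb9, and 1 at chr15:102973365-102973386 in the HoxC cluster, within an intron annotated to Hoxc5 and 1456 bases after Hoxc10. Both lie on the plus strand, and the 5p sequence of the 2 hairpins is the same. Their 3p arms differ, so miR-196a-2-3p marks the HoxC hairpin and miR-196a-1-3p the HoxB hairpin, which lies 51899 bases from the miR-10a hairpin.

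Reads that matched more than 1 of these sequences appear to have been shared out, and this sets what a row means. In 8 of 18 libraries the counts of miR-10a-5p were not whole (tolerance 0.01), and in the same 8 libraries those of miR-10b-5p were not whole. Counts of miR-196a-5p were not whole in 13 libraries and those of miR-196b-5p in 12, with both not whole in 10. All counts of the 3 listed 3p arms were whole. Among mouse names with 2 identical rows, 36.2% of the values above 0 had a remainder of 0.5, against 7.40% for names with 1 row. Each row of miR-196a-5p may therefore hold part of the reads of that sequence, and its level is given below both per row and for both rows summed.

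In level, miR-10a-5p and miR-10b-5p were among the most abundant microRNAs of the kidney, ranking 7 and 12 of 619 tested entries. The mean over 18 libraries was 33610 CPM for miR-10a-5p and 22840 CPM for miR-10b-5p, and the pair made up 3.55% to 7.29% of the named counts of a library. miR-196b-5p followed at 1536 CPM and miR-196a-5p at 729 CPM per row. The 3p arms were lower, at 322 CPM for miR-10a-3p, 114 CPM for miR-10b-3p and 9.03 CPM for miR-196a-2-3p. The order of the 7 arms was the same in each of the 18 libraries. For miR-10a-5p and miR-10b-5p alone among neighbours in that order, the ranges over libraries overlapped. With both rows summed, miR-196a-5p was at 1458 ± 290.3 CPM against 1536 ± 232.5 CPM for miR-196b-5p (SD, n = 18), so that this pair then lay within its spread, with miR-196b-5p above in 15 of 18 libraries. Levels in CPM are read shares, and the efficiency with which each sequence enters a library was not measured.

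**Figure D1:**
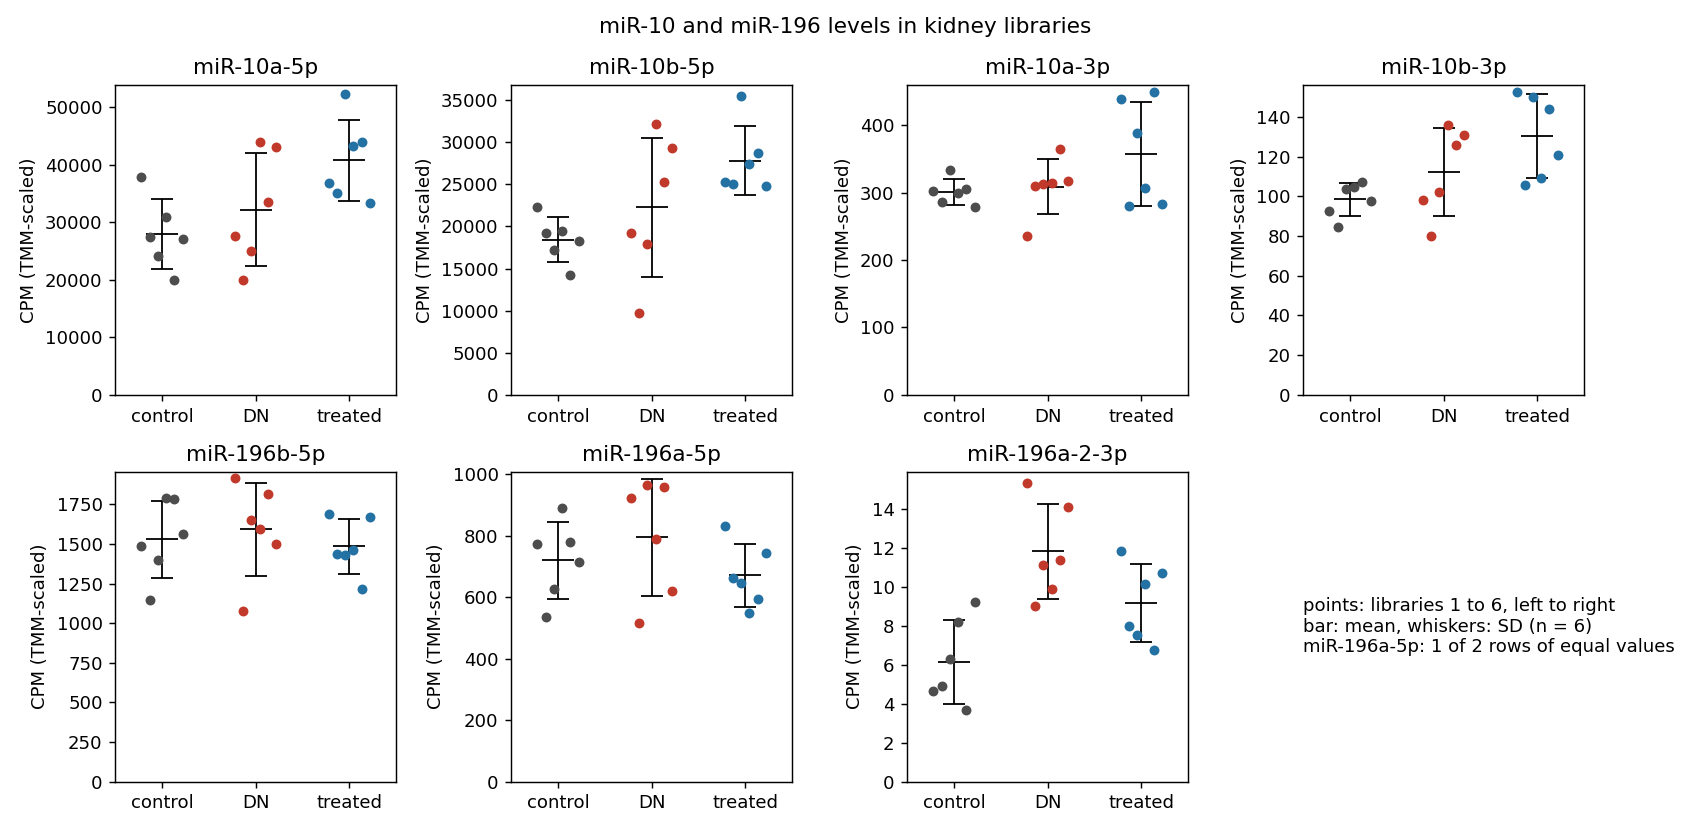
Level of each arm in CPM (y axes, from 0) in control, DN and treated libraries, 1 point per library, with the group mean and SD (n = 6). All 6 treated libraries lay above all 6 controls for miR-10b-5p (24790 CPM and more against 22270 CPM and less), and miR-196a-2-3p was lowest in control.

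DN against control asked which microRNAs differ in the kidney of mice with diabetic nephropathy. All 7 arms had a fitted difference above 0, as did 56.5% of all 619 entries, and none of the 7 passed the threshold. The clearest difference was in miR-196a-2-3p, the arm of the HoxC hairpin. Its raw counts in control libraries 1 to 6 were 24, 36, 34, 40, 15 and 39, those in DN libraries were 57, 62, 51, 65, 51 and 69, and those in treated libraries were 53, 29, 24, 40, 36 and 52. Scaled for library size, it ran from 3.66 to 9.21 CPM in control with a median of 5.58, and from 9.02 to 15.3 CPM in DN with a median of 11.3. The scaled levels of control and DN overlapped, because DN 2 at 9.02 CPM lay below control 6 at 9.21 CPM. Its log2 fold change was 0.94 (SE 0.269, 95% confidence interval 0.38 to 1.51, 1.92-fold), with 6 of 6 DN libraries above the control median. By edgeR's quasi-likelihood test the unadjusted p was 0.00251, rank 4 of 619, and the Benjamini-Hochberg adjusted p was 0.277.

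The same arm passed with DESeq2 (adjusted p = 0.0307), with limma-voom with sample weights (adjusted p = 0.0131) and without control 2, DN 2 and DN 3 (adjusted p = 0.0461, edgeR). These fits called 0.646%, 14.7% and 8.02% of all entries. Over the 30 alternatives its log2 fold change stayed between 0.87 and 1.09, and its adjusted p ran from 0.0131 to 0.704.

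Of the main products, miR-10b-5p, the HoxD arm, had a lowest, median and highest level of 14200, 18770 and 22270 CPM in control and of 9709, 22260 and 32120 CPM in DN. The DN libraries spread on both sides of control, with DN 2 below every control and DN 4, DN 5 and DN 6 above every control. The log2 fold change was 0.27 (SE 0.213, 95% confidence interval -0.17 to 0.72, edgeR adjusted p = 0.807), and it was 0.45 without DN 2. miR-10b-5p passed with limma-voom (log2 fold change 0.58, adjusted p = 0.0173) and without control 2, DN 2 and DN 3 (0.52, adjusted p = 0.0381), with a range of adjusted p from 0.0173 to 0.946 over the alternatives. In a whole kidney, fewer cells that make a microRNA and less of it per cell cannot be told apart, and the summed tubule microRNAs were lowest in the same library, DN 2. The part of that in the result was not tested.

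miR-10a-5p, the HoxB arm of the same seed, ran from 19960 to 37810 CPM in control and from 19940 to 43970 CPM in DN. Its log2 fold change was 0.21 (SE 0.195, adjusted p = 0.839, edgeR), which was 0.33 without DN 2. miR-10b-3p was at 112 ± 22.1 CPM in DN and 98.4 ± 8.50 CPM in control (log2 fold change 0.19, adjusted p = 0.820), and miR-10a-3p at 309 ± 41.2 against 301 ± 19.1 CPM (0.037, 0.976). Leaving out 1 library moved miR-10b-3p up to 0.32 (without DN 1), and miR-10a-3p between 0.015 (without control 6) and 0.19 (without DN 1). The spread of miR-10b-5p within DN, 37.1% of its mean, was wider than in control at 14.5%.

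The main products of miR-196 overlapped throughout. miR-196b-5p was at 1593 ± 293.6 CPM in DN and 1530 ± 244.7 CPM in control (log2 fold change 0.058, SE 0.159, adjusted p = 0.959, edgeR). miR-196a-5p, per row, was at 795 ± 189.7 against 720 ± 125.5 CPM (0.14, SE 0.183, adjusted p = 0.869), which was 0.27 without DN 2. For miR-196b-5p the value was 0.17 without DN 2 and 0.20 without control 5. Over all entries, 7.59% had an unadjusted p under 0.05, as had 1 of the 7 arms, and 0% passed after adjustment.

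Treated against DN asked which microRNAs differ with germacrone. The fitted differences were above 0 for the 4 miR-10 arms and below 0 for the 3 miR-196 arms, and none passed. miR-10a-5p ran from 33270 to 52210 CPM in treated libraries with a median of 40000 and from 19940 to 43970 CPM in DN with a median of 30620. Every treated library lay above the DN median, and the ranges overlapped. The log2 fold change was 0.34 (SE 0.195, 95% confidence interval -0.069 to 0.75, edgeR adjusted p = 0.7995), and it was 0.21 without DN 2.

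For miR-10b-5p the treated libraries ran from 24790 to 35520 CPM, again with 6 of 6 above the DN median. Its log2 fold change of 0.32 (SE 0.213, adjusted p = 0.7995, edgeR) was 0.14 without DN 2. The 3p arms miR-10a-3p and miR-10b-3p had log2 fold changes of 0.21 and 0.21, each with an adjusted p of 0.7995. Without DN 2 that of miR-10b-3p was 0.10, and that of miR-10a-3p was 0.088 without DN 1, 0.097 without treated 1 and 0.092 without treated 5.

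miR-196a-5p was at 672 ± 103.0 CPM per row in treated and 795 ± 189.7 CPM in DN, with 6 of 6 treated libraries below the DN median and overlapping ranges (log2 fold change -0.24, SE 0.183, adjusted p = 0.7995, edgeR). Without DN 2 its value was -0.38. miR-196b-5p had a log2 fold change of -0.10 (SE 0.159, adjusted p = 0.895), which was -0.22 without DN 2. miR-196a-2-3p lay between the control and DN levels in treated kidneys, at 9.16 ± 2.02 CPM (log2 fold change against DN -0.36, SE 0.268, adjusted p = 0.7995). In this comparison 42.2% of all entries were above 0, 3.72% had an unadjusted p under 0.05 and 0% passed, and 0 of the 7 arms were under 0.05.

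Treated against control, which shares its libraries with both comparisons above, held the widest separation of miR-10. miR-10b-5p was higher in every treated library (lowest, median and highest 24790, 26390 and 35520 CPM) than in any control (14200, 18770 and 22270 CPM). Such separation upward was found in 3.55% of all entries, and in 1 of the 7 arms. The log2 fold change of miR-10b-5p was 0.59 (SE 0.213, 95% confidence interval 0.15 to 1.04, 1.51-fold), with an unadjusted p of 0.0122 and an adjusted p of 0.186 by edgeR.

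miR-10a-5p was at 40730 ± 7093 CPM against 27910 ± 6083 CPM (log2 fold change 0.55, SE 0.195, 95% confidence interval 0.14 to 0.95, 1.46-fold, edgeR adjusted p = 0.186). All 6 treated libraries lay above the control median, and control 1 at 37810 CPM lay within the treated range. miR-10b-3p was at 130 ± 21.0 against 98.4 ± 8.50 CPM (log2 fold change 0.41, SE 0.168, adjusted p = 0.202), with 6 of 6 above the control median. miR-10a-3p, at 357 ± 77.5 against 301 ± 19.1 CPM, was above that median in 4 of 6 (0.25, SE 0.161, adjusted p = 0.406).

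Calls on these arms depended on the fit. miR-10b-5p passed with limma-voom (adjusted p = 0.00950), with only the 2 groups fitted (adjusted p = 0.0288), without control 2, DN 2 and DN 3 (adjusted p = 0.0188) and without DN 2 (adjusted p = 0.0493), in a range up to 0.325 over the alternatives. miR-10a-5p passed with limma-voom (adjusted p = 0.0214) and with only the 2 groups fitted (adjusted p = 0.0423), and miR-10b-3p with limma-voom (adjusted p = 0.0489). The fits in that order, limma-voom, 2 groups, without the 3 libraries and without DN 2, called 17.1%, 9.76%, 7.86% and 1.11% of all entries. With library size alone as the scale, the log2 fold change of miR-10b-5p was 0.38 and that of miR-10a-5p 0.34, while the median over all entries shifted by -0.20. On that scale miR-10b-3p was at 0.19, miR-10a-3p at 0.030, miR-196a-2-3p at 0.38, miR-196a-5p at -0.30 and miR-196b-5p at -0.25.

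Of the tubule microRNAs, 4 of 4 had a fitted difference above 0 in treated against control, and none passed. The log2 fold changes ran from 0.16 for miR-194-5p to 0.96 for miR-204-5p. The summed tubule level ran from 72290 to 105200 CPM in control and from 100100 to 137300 CPM in treated libraries. Above 0 were also 3 of 3 red blood cell microRNAs (median log2 fold change 0.77), 2 of 2 endothelial, 2 of 3 smooth muscle and 2 of 3 nerve and adrenal microRNAs. Of striated muscle microRNAs 0 of 2 were above 0, and of liver microRNAs 0 of 1. None in these lists passed. The 6 leukocyte microRNAs summed to 2789 to 3708 CPM in control, above 5 of 6 treated libraries (1472 to 2629 CPM, with treated 6 at 8492) and 5 of 6 DN libraries (1344 to 1906 CPM, with DN 2 at 23150). Most of the control sum was miR-146a-5p, at a mean of 2333 CPM. The list was split in treated against control, with 2 of 6 fitted above 0 and 4 below. In DN against control, 6 of 6 were fitted above 0, with DN 2 in the fit. For each of the 6, the SD within DN was larger than the DN mean. That of miR-223-3p was 2047 CPM for a mean of 921 CPM, and that of miR-146a-5p was 4336 CPM for a mean of 2714 CPM. Their signs without DN 2 were not tested. The part of any of these cell types in the levels of the 7 arms was not tested.

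The miR-196 main products did not follow miR-10 in sign. miR-196b-5p was at 1485 ± 175.2 CPM in treated and 1530 ± 244.7 CPM in control (log2 fold change -0.043, SE 0.159, edgeR adjusted p = 0.901), and miR-196a-5p per row at 672 ± 103.0 against 720 ± 125.5 CPM (-0.099, SE 0.183, adjusted p = 0.771). The sign of miR-196b-5p turned in 6 of the 30 alternatives, each with 1 library left out, reaching 0.067 without control 5, and that of miR-196a-5p turned in 1, to 0.012 without treated 4. miR-196a-2-3p was above the control median in 6 of 6 treated libraries (log2 fold change 0.58, SE 0.271, adjusted p = 0.252). Of the 7 arms, 5 were above 0 and 4 had an unadjusted p under 0.05, against 49.8% and 19.5% of all entries, and 0% of the entries passed. The median log2 fold change of the 7 arms was 0.41, against -0.0035 over all 619 entries. For DN against control these medians were 0.19 and 0.075, and for treated against DN 0.21 and -0.054.

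**Figure D2:**
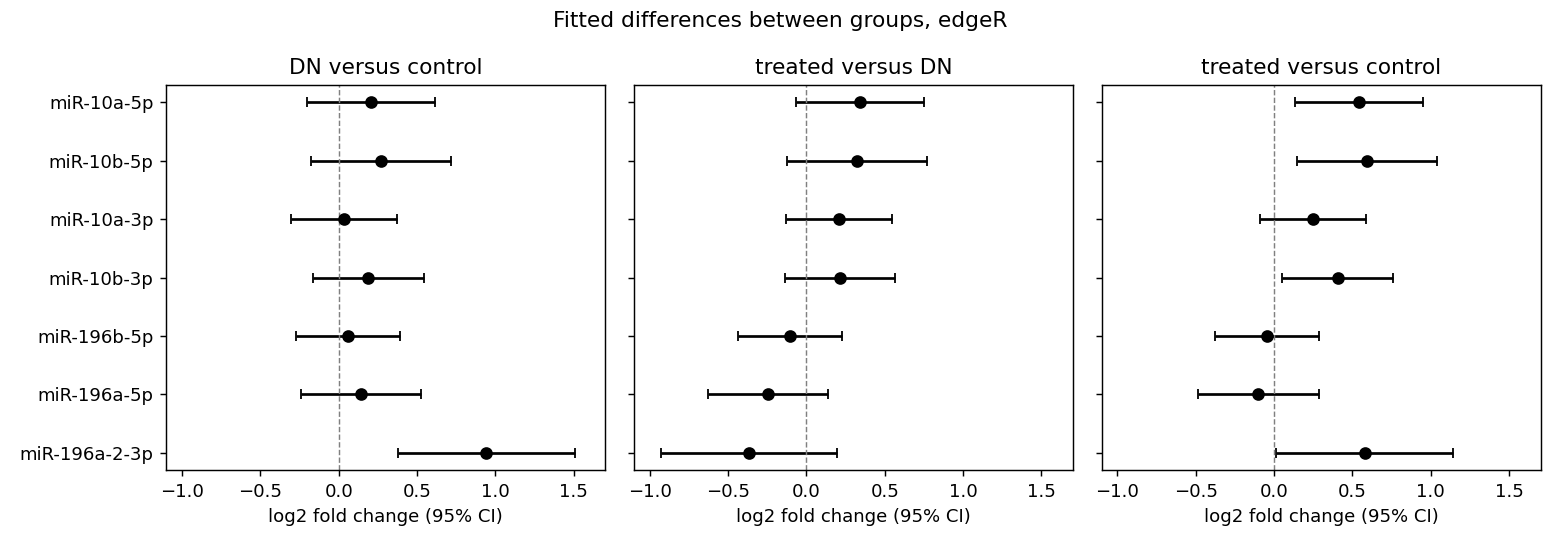
Fitted log2 fold change (x axis) of each arm in the 3 comparisons, with 95% confidence intervals calculated from the edgeR fit. In treated against control the intervals of miR-10a-5p (0.14 to 0.95) and miR-10b-5p (0.15 to 1.04) lie above 0 before adjustment, and those of miR-196a-5p and miR-196b-5p span 0.

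Ratios of counts within a library do not depend on how libraries are scaled, and 5 such ratios were compared between groups in 15 exact permutation tests (2-sided, 6 against 6, smallest possible p 0.00217), adjusted together. The largest differences were in the ratio of miR-196a-5p, per row, to miR-196a-2-3p. There were 76.4 to 207 counts of the 5p arm for each count of the 3p arm in control (median 108), 43.8 to 85.8 in DN (median 69.3) and 53.5 to 86.7 in treated libraries (median 75.8). Apart from control 6, the lowest, every control lay above every DN and treated library.

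On the log2 scale this ratio was 0.86 lower in DN than in control (6.05 ± 0.386 against 6.90 ± 0.523, exact permutation p = 0.00866, adjusted p = 0.0649), with 6 of 6 DN libraries below the control median. It was 0.71 lower in treated than in control (6.19 ± 0.262, exact permutation p = 0.00866, adjusted p = 0.0649), again with 6 of 6 below. Both passed without control 6 (exact permutation, adjusted p = 0.0325 each). Control 6 was the only control to overlap the other groups, so leaving it out separates them fully. The unadjusted p is then the smallest possible for that number of libraries. Both tests use the same controls, so their results are not independent. Without any other single library neither passed (exact permutation, adjusted p 0.0974 to 0.1299), DN 2 among them at 0.1299 for DN against control. Treated against DN differed by 0.15 (exact permutation p = 0.465, adjusted p = 0.660). The 5p count takes in the HoxB hairpin as well, so this is not the arm ratio of the HoxC hairpin alone.

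The miR-10 arm ratios overlapped between groups. For miR-10a there were 64.3 to 140.5 counts of 5p for each count of 3p over the 18 libraries (median 100.4), and for miR-10b 121 to 252 (median 199.8). In log2, miR-10a differed by 0.33 between treated and control (6.84 ± 0.287 against 6.51 ± 0.345, exact permutation p = 0.0974, adjusted p = 0.487), which was the smallest p among the 6 tests of these ratios.

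The balance of the HoxD and HoxB products did not separate the groups. miR-10b-5p was at 0.487 to 0.753 counts for each count of miR-10a-5p, with a median of 0.688 in control, 0.708 in DN and 0.684 in treated libraries. The exact permutation p was 0.528 to 0.946 in the 3 comparisons (adjusted p 0.660 to 0.946), and the mean log2 differences were 0.0070 to 0.038, within the spread of each group. DN 2 was the exception among libraries, at 0.487 against 0.681 to 0.753 in the other DN libraries. miR-196b-5p was at 1.71 to 2.67 counts per count of 1 row of miR-196a-5p, and at 0.857 to 1.33 counts with both rows summed. Its exact permutation p was 0.184 to 0.461, with an adjusted p of 0.660 in each comparison.

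**Figure D3:**
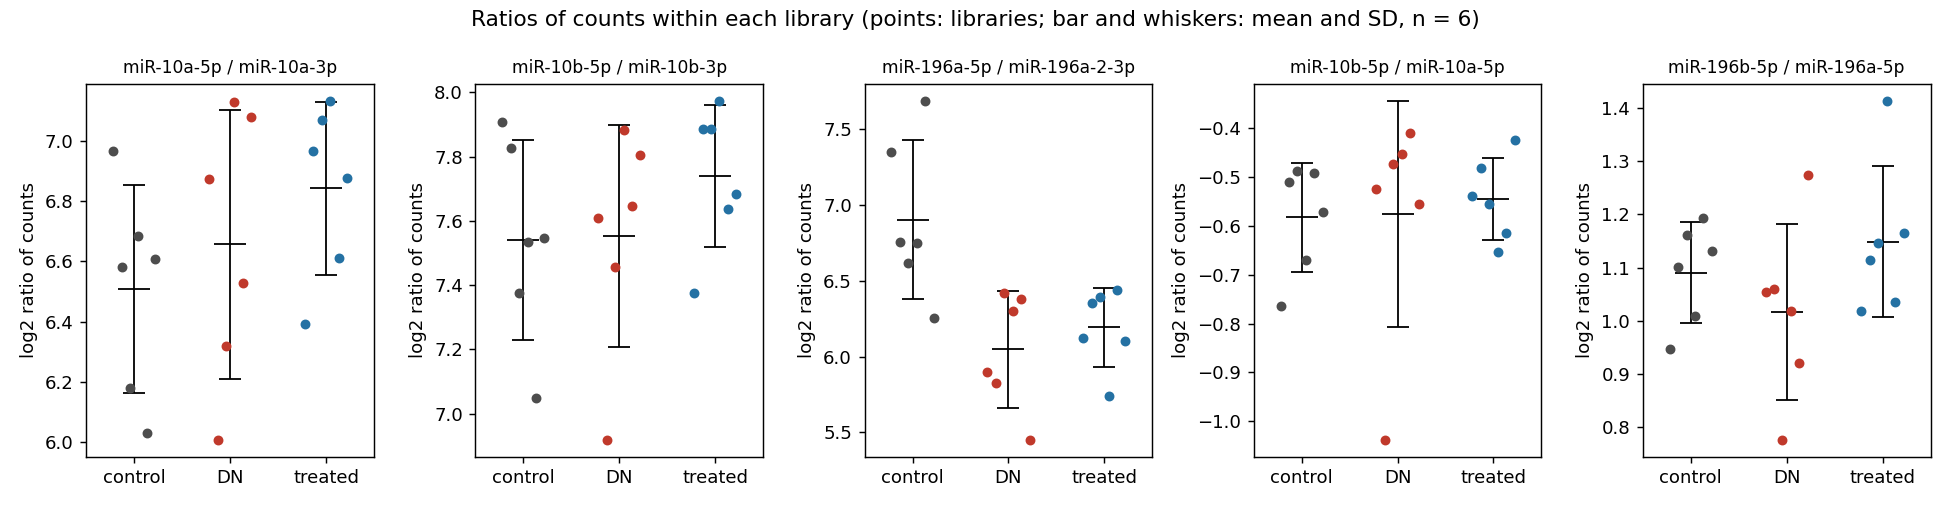
Log2 ratio of counts (y axes) for 5 pairs of arms, 1 point per library with the group mean and SD (n = 6). The ratio of miR-196a-5p to miR-196a-2-3p is lower in DN (6.05 ± 0.386) and treated (6.19 ± 0.262) than in control (6.90 ± 0.523), and DN 2 is the low point for miR-10b-5p over miR-10a-5p.

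The other arms of the Hox clusters were compared as a list of 4, of which 3 passed the filter and none the threshold. miR-196a-1-3p, from the HoxB hairpin, was at 21.2 ± 7.72 CPM in control, 32.9 ± 12.4 CPM in DN and 33.6 ± 10.5 CPM in treated libraries. Its log2 fold change was 0.63 in DN against control (SE 0.307, edgeR adjusted p = 0.618) and 0.66 in treated against control (SE 0.307, adjusted p = 0.252), next to 0.94 and 0.58 for the HoxC arm miR-196a-2-3p. miR-196b-3p was at 19.97 ± 3.04, 21.3 ± 7.72 and 20.8 ± 2.12 CPM in control, DN and treated libraries. miR-615-3p, from the HoxC cluster, was at 292 ± 104.7, 308 ± 120.3 and 248 ± 35.1 CPM, and its other arm miR-615-5p at 0 to 1.85 CPM, below the filter. The miR-99, miR-100 and miR-125 microRNAs, relatives of miR-10 that lie outside the Hox clusters, had 3 of 10 tested arms above 0 in DN against control, 3 of 10 in treated against DN and 4 of 10 in treated against control, with none past the threshold. Of these arms, miR-99a-5p and miR-100-5p held equal values in 18 of 18 libraries, so 1 set of values enters each count as 2 arms, both below 0 in DN against control and above 0 in the other comparisons.

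Across the 18 libraries, miR-10a-5p and miR-10b-5p followed each other more closely than any of 327 mouse names with a mean of at least 10 CPM. Likeness was measured as the root-mean-square (RMS) difference of log2 CPM after centring each name on its mean, where 0 would be the same pattern. It was 0.14 between miR-10a-5p and miR-10b-5p, against a median of 0.63 for miR-10a-5p and 0.65 for miR-10b-5p over all names. Reads shared between these arms by the counting are part of both. The names outside the family nearest to miR-10a-5p were miR-27b-3p (RMS 0.23), miR-221-5p (0.23) and miR-99a-5p (0.23), and those nearest to miR-10b-5p were the tubule microRNA miR-30a-5p (0.18), miR-221-5p (0.19) and miR-27b-3p (0.24). The 3p arms were further away, at 0.36 between miR-10a-5p and miR-10a-3p and 0.29 between miR-10b-5p and miR-10b-3p.

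miR-196a-5p and miR-196b-5p were also close to each other (RMS 0.14) but not to miR-10, at 0.50 between miR-196a-5p and miR-10a-5p. Their nearest names outside the family were miR-98-5p (RMS 0.13 to miR-196a-5p and 0.14 to miR-196b-5p) and let-7f-5p (0.17 and 0.18), followed by let-7g-5p for miR-196a-5p (0.22) and miR-1839-5p for miR-196b-5p (0.20). The 18 libraries behind these patterns differ in depth and composition. In DN 2 the centred log2 CPM was -0.47 for miR-196a-5p, -0.46 for miR-98-5p and -1.62 for miR-30a-5p, but -0.014 for miR-1839-5p.

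Sequences are given for a part of these neighbours, picked because a run of bases is shared, with the longest common run in capitals.
miR-196a-5p: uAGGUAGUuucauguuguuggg
miR-98-5p: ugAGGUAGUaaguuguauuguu
let-7f-5p: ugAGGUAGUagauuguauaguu
let-7g-5p: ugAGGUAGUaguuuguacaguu
miR-10a-5p: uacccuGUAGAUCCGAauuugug
miR-99a-5p: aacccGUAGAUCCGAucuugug
The 7 bases that form the seed of miR-196 stand at bases 2 to 8 of miR-196a-5p and at bases 3 to 9 of miR-98-5p, let-7f-5p and let-7g-5p, 1 base outside the frame of their own seed. miR-10a-5p and miR-99a-5p share a run of 10 bases, at bases 7 to 16 and 6 to 15. The names nearer in pattern to miR-10a-5p, miR-27b-3p and miR-221-5p, share runs of 3 and 7 bases with it. The nearest names of miR-10b-5p share no run longer than 6 bases with it.

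**Figure D4:**
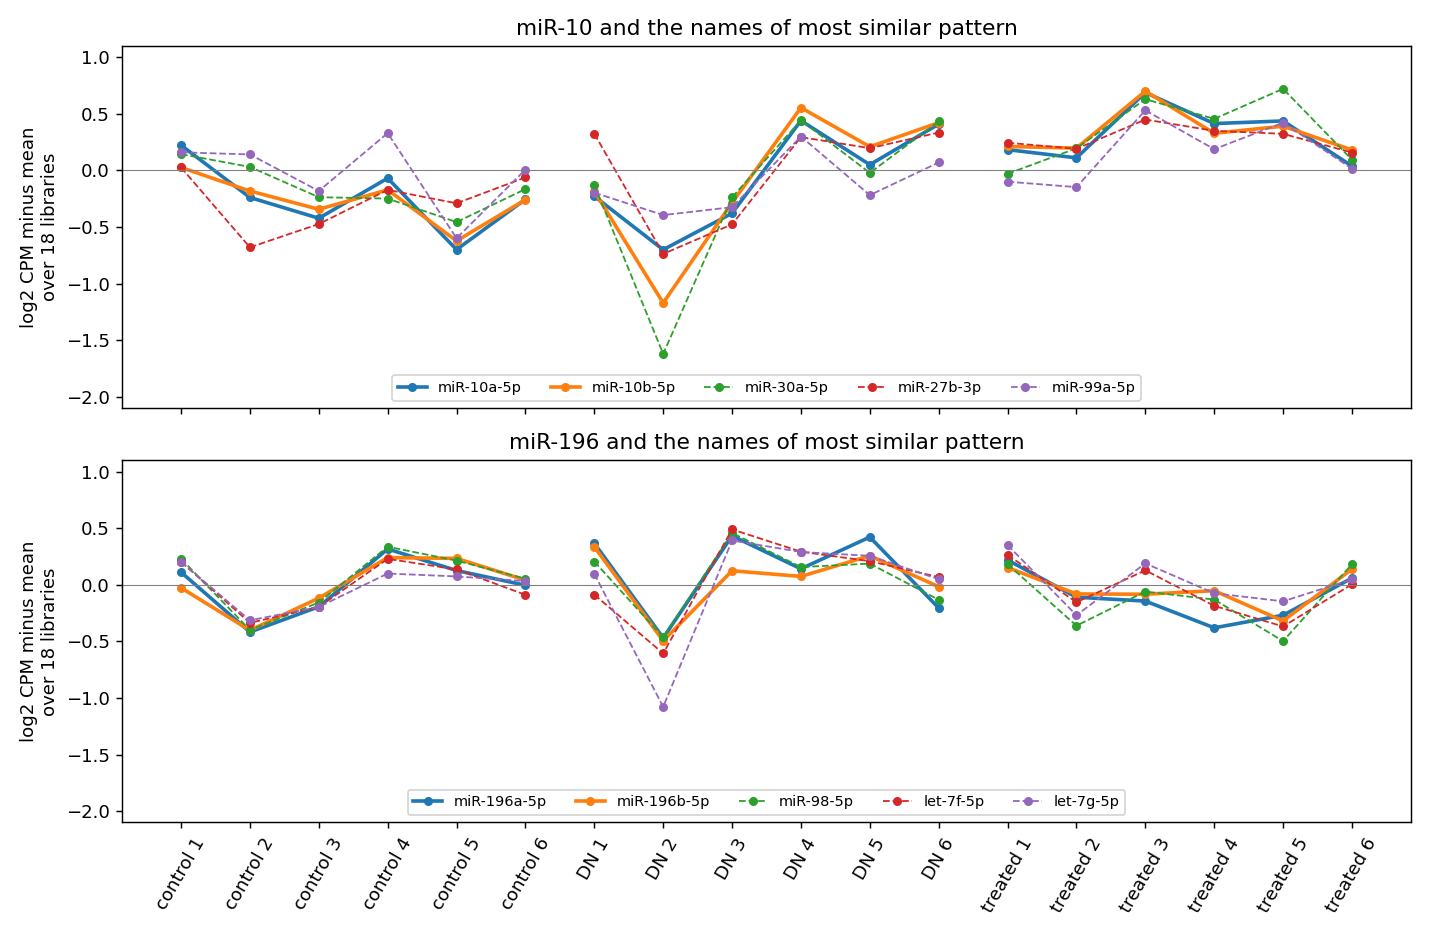
Centred log2 CPM (y axes, 0 is the mean over 18 libraries) by library (x axis) for miR-10 and miR-196 main products (thick lines) and named neighbours (dashed lines). miR-10a-5p and miR-10b-5p are high in treated libraries and low in DN 2, whereas miR-196a-5p and miR-196b-5p move with miR-98-5p and let-7f-5p.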

How the data were processed

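Small RNA was sequenced from 18 kidney libraries. Per the labels, adapter dimers, junk, low-complexity reads, common RNA families and repeats were removed with ACGT101-miR, and Trimmomatic 0.32, BWA, SAMtools and edgeR are listed in the submitters' processing notes. Neither labels nor header state a genome build or miRBase release. Raw values in the table deposited by the authors are estimated counts, which were rounded to whole numbers. The deposited normalized columns hold a signal that, from the values, is the raw value times 1 factor per library made by the authors, and were not used.

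The 350 unnamed entries held 0.0136% to 0.148% of a library's counts and were left out. Of 1184 named entries, 619 passed filterByExpr (minimum count 10, minimum total 15). All 18 libraries were fitted together with edgeR 4.0.16 in R 4.3.3 (TMM factors, quasi-likelihood test, group as the only factor, 2-sided), and p-values were adjusted by Benjamini-Hochberg over all 619, with calls at 0.05. CPM values are TMM-scaled (log2 CPM with prior count 2). Ratios used 0.5 added to each count and exact permutation tests (SciPy 1.17.1). Alternatives used DESeq2 1.42.0 and limma 3.58.1, among others. The script was checked on simulated counts.

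Members and lists were chosen with earlier results of these data known. By the naming rule, all 7 arms, the other Hox arms and the 3 nearest names to each main product were named. Over 45 within-group pairs of libraries, chi-square per degree of freedom was at least 56.2, so none looked like a library deposited again.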

Additional observations from a re-analysis of the deposited data

Results flagged for a closer look

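Across 36 sets of 6 libraries (7 arms and 5 ratios in 3 groups), 3 held a library far from the other 5, where chance gives about 1 in 20. In DN, the log2 ratio of miR-10b-5p to miR-10a-5p was -1.04 in DN 2 and -0.56 to -0.41 in the others. Among treated libraries, miR-10b-5p was at 35520 CPM in treated 3 and at 24790 to 28670 CPM in the others. The log2 ratio of miR-196b-5p to 1 row of miR-196a-5p was 1.41 in treated 4 and 1.02 to 1.17 in the other treated libraries.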

How the results depend on the processing

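By edgeR, 0 of 7 arms and 0 of 619 entries passed in each comparison. In DN against control, all entries called numbered 4 with DESeq2, 91 with limma-voom, 2 with a filter of 10 CPM in 6 libraries and 51 without control 2, DN 2 and DN 3, and the arms called numbered 1, 2, 0 and 2. In treated against control, all entries called numbered 18 with DESeq2, 106 with limma-voom, 56 with only these groups fitted and 50 without the 3 libraries, and the arms called numbered 0, 3, 2 and 1. Leaving out 1 library gave 0 to 6 calls in DN against control and 0 to 7 in treated against control, with 0 to 1 of the arms in the latter. The cause was not tested. In treated against DN, every fit run gave 0.

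Signs turned for values near 0. In DN against control, miR-10a-3p was at -0.037 and miR-196b-5p at -0.022 with library size only, and miR-10a-3p at -0.0054 without the 3 libraries. In treated against control, leaving out 1 library moved miR-196b-5p from -0.068 to 0.067 and miR-196a-5p from -0.14 to 0.012. The scale changes in such fits as well, because TMM takes 1 library as its reference. In 16 of 18 fits with 1 left out, this was another library than in the fit of all 18, often DN 3. The part of this in the moves above was not tested. The median over all entries then shifted by up to 0.12 in DN against control (0.063 to 0.066 with a treated library left out, which is not in that comparison), by -0.081 to 0.0032 in treated against DN and by -0.013 to 0.057 in treated against control. The ratios below do not depend on it. Leaving out 1 library moved the log2 ratio of miR-10b-5p to miR-10a-5p from -0.029 to 0.0995 in DN against control and from -0.062 to 0.064 in treated against DN, and the miR-10b arm ratio from -0.085 to 0.14 in DN against control. Without the 3 libraries, treated against DN gave -0.060 for the miR-10a arm ratio and -0.059 for miR-10b-5p to miR-10a-5p. The ratio of miR-196a-5p to miR-196a-2-3p ranged from -0.99 to -0.70 in DN against control and from -0.84 to -0.55 in treated against control with 1 library left out. Summing identical rows, an alternative chosen after seeing the data, changed no call. For the ratios with miR-196a-5p this was fixed in advance, because summing moves the log2 ratio by almost the same amount in every library.

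With the replicate number as a block (replicate block), 0 entries passed in each comparison, and miR-10b-5p was at 0.59 in treated against control. Same-numbered libraries correlated at -0.33 to 0.26, and 0 of 6 in each comparison correlated best with their own number. miR-196a-2-3p rests on 15 to 69 counts a library, which limits its precision.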

Other observations

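Outside the mouse names, 4 entries carried a miR-196 name of another species (prefixes mdo and dno), with 0 to 54 counts a library. They were not added to the levels above.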
